A study of Mus musculus with 12 samples.

Results

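H3K27ac, the acetyl mark that sits on nucleosomes of active promoters and active enhancers, was compared between mouse embryonic stem (ES) cells treated with LG268 and control ES cells. LG268 is a rexinoid, a synthetic ligand of the retinoid X receptors. The members were the 22279 regions that the peak lists of these 2 libraries gave once peaks sharing at least 1 bp were merged. Of these, 10871 were called in both lists, 1090 with LG268 only and 10318 in the control only. The series held 12 libraries, and its 4 H3K27ac lists together gave 25396 regions by the same merging. Each group was 1 library, so no difference between the treatments could be tested, and the intervals below cover counting error only.

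The cells were wild-type E14 ES cells, an established mouse line, grown without feeder cells in medium with serum and leukaemia inhibitory factor, which keeps ES cells undifferentiated. LG268 was given at 1 µM for 24 h. The library labelled CTRL is the control, and the protocol names dimethylsulfoxide as the vehicle. GW3965 (a ligand of the liver X receptors) and RA (all-trans retinoic acid, a ligand of the retinoic acid receptors), each at 1 µM for 24 h, gave further H3K27ac lists, and RXR was mapped in the control and LG268 cells. Read numbers are not part of the lists, so sequencing depth is unknown.

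Retinoid X receptors (RXR) bind DNA as the common partner of many nuclear receptors, including the retinoic acid receptors (RAR), the liver X receptors (LXR) and the peroxisome proliferator-activated receptors (PPAR). The 2 receptors of a dimer each hold a short half-site, and the spacing of the half-sites in a direct repeat sets which partner fits best. Some dimers, called permissive, can be switched on from the RXR side. LXR and PPAR dimers are the usual examples, and the RAR dimer is the usual counterexample. When a ligand turns such a dimer on, coactivators that include the acetyltransferases p300 and CBP are recruited, and these are the enzymes that place the acetyl group on H3K27.

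The sequences shown are of promoters that hold both an RXR peak of the LG268 list and a direct repeat of half-sites. There the receptor's peak, its motif and the mark can be read for the same promoter, though they need not overlap. RefSeq promoter windows of protein-coding genes (GRCm38.p6, 250 bases before to 50 after the start, 21263 windows) were searched on both strands for the consensus hexamer AGGTCA, the common variant GGGTCA, the looser form written AGTTCA and a further variant written GGTTCA, and for any pair of them in direct repeat with 1 to 5 bases between (DR1 to DR5). A window with an LG268 RXR peak and such a repeat was found for 9 genes, and in 5 of these the repeat lay wholly before the start. The 4 shown are those 5 without Trmt2a, whose window is the other side of the promoter it shares with Ranbp1. Each is given for the 250 bases before the start, 5′ to 3′ on the strand of the gene, with the repeated half-sites in capitals, which at Casd1 are the complement. Rarb (DR5, chr14:16575477-16575726, minus strand) encodes the retinoic acid receptor beta, Ranbp17 (DR1, chr11:33513754-33514003, minus strand) and Ranbp1 (DR1, chr16:18248695-18248944, minus strand) encode proteins that bind the nuclear transport GTPase Ran, and Casd1 (DR2, chr6:4600661-4600910, plus strand) encodes a sialic acid acetyltransferase.
Rarb: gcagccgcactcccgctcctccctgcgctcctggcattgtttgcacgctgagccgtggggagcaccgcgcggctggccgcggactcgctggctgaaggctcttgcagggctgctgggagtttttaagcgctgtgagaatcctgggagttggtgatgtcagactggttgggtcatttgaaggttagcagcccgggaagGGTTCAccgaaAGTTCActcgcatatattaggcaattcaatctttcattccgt
Ranbp17: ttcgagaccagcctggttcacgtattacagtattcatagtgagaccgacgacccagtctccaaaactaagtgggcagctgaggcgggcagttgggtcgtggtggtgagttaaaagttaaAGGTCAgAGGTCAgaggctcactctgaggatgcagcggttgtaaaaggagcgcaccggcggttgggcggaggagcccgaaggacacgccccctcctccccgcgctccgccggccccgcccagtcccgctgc
Ranbp1: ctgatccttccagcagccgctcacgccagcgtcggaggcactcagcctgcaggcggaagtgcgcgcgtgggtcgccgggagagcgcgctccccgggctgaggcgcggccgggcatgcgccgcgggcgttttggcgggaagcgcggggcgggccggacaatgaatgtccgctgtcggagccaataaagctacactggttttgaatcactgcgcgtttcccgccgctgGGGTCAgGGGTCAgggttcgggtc
Casd1: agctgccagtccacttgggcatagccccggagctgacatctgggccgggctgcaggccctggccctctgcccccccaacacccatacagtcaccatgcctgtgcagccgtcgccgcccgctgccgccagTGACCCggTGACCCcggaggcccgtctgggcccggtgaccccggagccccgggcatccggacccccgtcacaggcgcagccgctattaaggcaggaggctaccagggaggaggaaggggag

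The H3K27ac values at these 4 promoters did not share a direction. At Rarb the region was called in the control (score 6.99, rank 12309 of 21418 peaks) and with RA (rank 4732) and GW3965 (rank 10326), and it was not called with LG268, although the RXR peak there stood at rank 78 of 2089 in the LG268 list and at rank 52 of 1089 in the control. The Rarb H3K27ac region (chr14:16575115-16575474) lay on the gene side of the printed bases and overlapped neither them nor the repeat. A rank is the place of a peak in its own list by the authors' Peak Score, 1 being the highest, and since the lists differ in length a rank is not in itself a change. At Ranbp17 the region was among the highest of both lists, at rank 115 in the control and rank 790 with LG268. The Ranbp1 region stood at rank 2181 in the control and 903 with LG268, and that of Casd1 at rank 2922 and 7189. Ranked among the regions called in both lists, their score percentiles differed by -6.21, 11.6 and -37.2 points, LG268 minus control.

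The repeats were rare, and the half-sites common, in promoters at large. A DR1 was found in 0.183% of all 21263 windows, a DR2 in 0.089% and a DR5 in 0.08%, against 1.60% (6 of 375), 0.267% (1) and 0.267% (1) of the windows with an LG268 RXR peak. The DR1 windows include those of Ranbp1 and Trmt2a, which hold the same repeat read from opposite strands. A DR4 was found in 0.042% of all windows and in 0.267% (1) of those with an RXR peak. A DR3 was found in 0.038% of all windows and in none with an RXR peak. At least 1 half-site lay in 41.2% of all windows and in 58.7% of the 375 with an RXR peak (95% interval 53.5 to 63.7%). It lay in 35.2% of windows called for H3K27ac in both lists, in 36.1% of those called in the control only and in 34.8% of those called with LG268 only. The intervals of the 3 H3K27ac classes overlapped in this measure. The classes differed from uncalled promoters in CpG content: the median number of CpG dinucleotides in the 300 bases was 24 for promoters called in both lists, 22 for the control only, 18 for LG268 only and 6 for windows in neither list. A match is a description of the letters and no evidence of a bound site.

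The LG268 list was the shorter one, and most of what set the lists apart was regions called in the control alone. It held 12472 peaks over 5317 kb against 21418 peaks over 9720 kb in the control, with similar median widths of 376 and 392 bp. Regions of the control only were 46.3% of all regions, and regions of LG268 only were 4.89%. The GW3965 list (17759 peaks) and the RA list (14958) lay between them in length. Depth, which sets how many weak peaks a caller finds, is not given for any of these lists, so a lower level of the mark and a shallower library cannot be told apart. With the control list limited to its 12472 highest peaks, the 2 single-list classes came close to each other, at 3058 regions in the control only and 2638 with LG268 only beside 9338 in both.

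**Figure D1:**
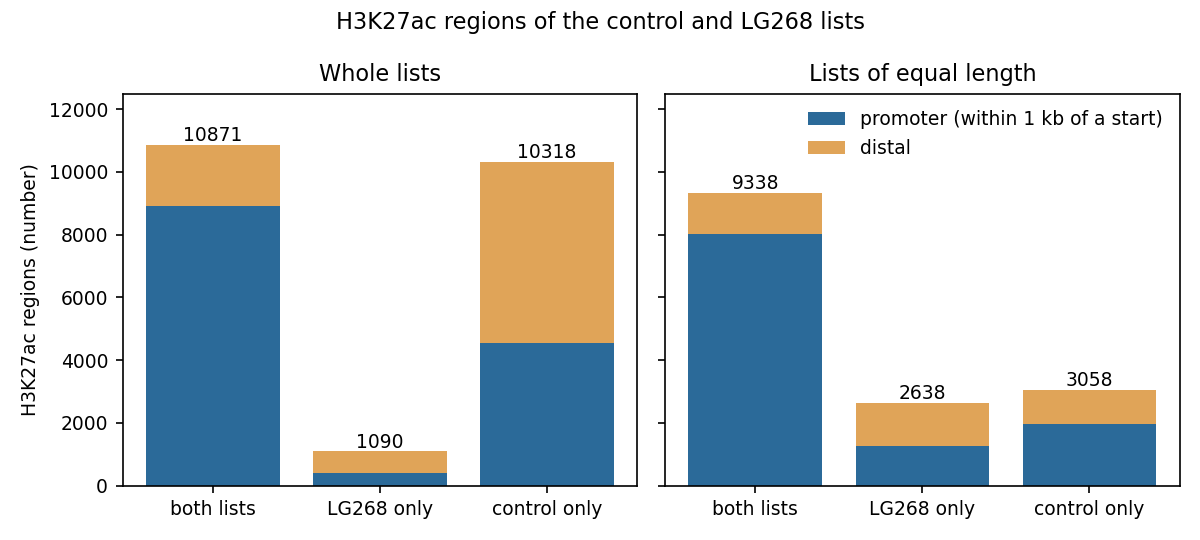
Number of H3K27ac regions called in both lists, with LG268 only and in the control only, split into promoter and distal regions, for the whole lists (left) and with the control list limited to the length of the LG268 list (right). The control-only class falls from 10318 to 3058 regions and the LG268-only class grows from 1090 to 2638.

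Promoters made up most of what the 2 libraries shared, and in the whole lists distal regions made up most of what they did not. A region within 1 kb of a transcription start was counted as a promoter. Of the shared regions 81.9% were promoters (95% interval 81.2 to 82.6%), against 44.1% of the control-only regions (43.1 to 45.1%) and 35.9% of the LG268-only regions (33.0 to 38.8%). In lists of equal length the shares were 86.0%, 64.5% and 47.6%, so that most control-only regions were then promoters. In the upper 50% of each list promoters were the larger part of all 3 classes, at 90.5%, 77.3% and 69.2%. The order of the 3 classes was the same in these settings, while under a stricter overlap of 50% of each peak the LG268-only share (59.9%) was above the control-only share (48.6%). Distal regions numbered 1965 in both lists, 5767 in the control only and 699 with LG268 only, and between 51.1% and 61.8% of each class were intergenic.

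Whether a control peak was found again with LG268 went with its score, and within bands of score promoters were found again more often than distal peaks. With the control list divided by score into 4 equal bands, from the lowest to the highest 20.9%, 38.2%, 70.1% and 96.2% of promoter peaks overlapped an LG268 peak. For distal peaks the shares were 10.7%, 21.6%, 56.2% and 94.9%. The 2 kinds differed in each of the lower 3 bands by more than their intervals, and were close in the highest. The bands are wide, and the 2 kinds were not compared at equal score within them. Promoters were also found again more often in the lower 3 bands where GW3965 and RA, limited to the same 12472 peaks and sharing this control, were searched instead: in the third band 61.3% of distal and 76.8% of promoter peaks were found with GW3965, and 56.3% and 74.1% with RA. In the highest band the intervals, which overlapped for LG268, did not overlap for GW3965 (95.4% of distal and 98.7% of promoter peaks) or RA (95.2% and 97.8%). In the other direction, 91.3% of LG268 peaks overlapped a control peak, and 99.9% of those in the highest of the 4 bands of the LG268 list did.

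**Figure D2:**
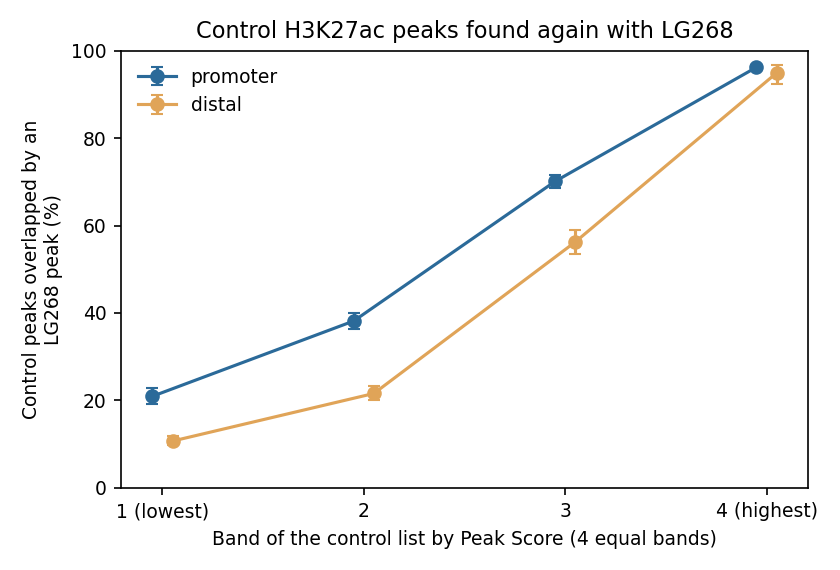
Share of control H3K27ac peaks that overlap an LG268 peak by at least 1 bp, by band of the control list's score (4 bands of equal size), for promoter and distal peaks, with exact 95% binomial intervals. Both lines climb with the score, from 20.9% to 96.2% for promoters and from 10.7% to 94.9% for distal peaks.

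The single-list regions were narrow and low in score. The median width of distal regions was 260 bp for LG268 only and 282 bp for the control only, against 499 bp for shared ones. LG268-only promoters stood at a median score percentile of 19.3 in the LG268 list and LG268-only distal regions at 12.9, where 100 is the highest. Control-only promoters stood at 36.9 and control-only distal regions at 22.2 in the control list, while shared promoters stood at 76.7 there. Some single-list regions lay beside a peak of the other list, promoters more often than distal regions. Of the LG268-only promoters 65.7% (257 of 391) had a control peak within 1 kb, as did 24.6% of the LG268-only distal regions (172 of 699). This leaves 661 LG268-only regions away from any control peak at that distance. Of the control-only promoters 40.1% (1824 of 4551) had an LG268 peak within 1 kb, and of the control-only distal regions 10.5% (604 of 5767).

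The 10 LG268-only promoters of highest score, outside repeats, began at rank 2160 of the LG268 list. The first was 1110001J03Rik, an uncharacterized gene, with a score of 13.96, which was also called with GW3965 (rank 1406) and RA (rank 1785). The second, 4732415M23Rik, is the only one of the 10 with an RXR peak of the LG268 list, at chr8:123213035-123213410, 364 bp from its start. It stood at rank 2584 with LG268, 3369 with RA and 12267 with GW3965. The list went on with Ubxn1, a cofactor of the p97 ATPase, at rank 3926, Dusp16, a phosphatase of the JNK kinases, at rank 4216, and Rnf128, a ubiquitin ligase, at rank 4839. Of the 10, 8 were called with GW3965, 9 with RA and 5 had a control peak within 1 kb. Over all LG268-only promoters 42.5% were called with GW3965 and 27.9% with RA, so these 10 are not typical of the class. Only that at Mir1895, a microRNA gene, was called with LG268 alone among the 3 ligands.

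The 10 LG268-only distal regions of highest score included those near Phf12 (rank 3189), a subunit of a Sin3 corepressor complex, and Ppargc1b (rank 4739). Ppargc1b encodes PGC-1 beta, a coactivator of nuclear receptors and mitochondrial genes, and its region lay in intron 1, 1605 bp from the start, at chr18:61398656-61398997. Sox21, which encodes a transcription factor of neural progenitors, had a region in its exon at rank 5678. None of the 10 held an RXR peak, and 6 of them, these 3 genes included, had a control peak within 1 kb, against 24.6% of the class. In all, 899 of the 12621 genes with a region within 100 kb had an LG268-only region (7.12%), and 664 of the 899 also had a control peak.

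RXR peaks were found at few LG268-only regions. An RXR peak of the LG268 list lay in 4.15% of LG268-only distal regions (29 of 699, interval 2.80 to 5.90%), in 2.03% of control-only ones (117 of 5767, 1.68 to 2.43%) and in 8.55% of shared ones (168 of 1965, 7.35 to 9.87%). In lists of equal length LG268-only and control-only distal regions stood closer, at 4.13% and 3.78%. Among the LG268-only regions with strong RXR peaks, that near Ccng2, which encodes cyclin G2, stood at RXR rank 55 and H3K27ac rank 8542. One near Tfap2b, a transcription factor gene, stood at RXR rank 71 and H3K27ac rank 10119. Both RXR peaks were also in the control list, at ranks 53 and 147, and both H3K27ac regions were in the lower part of the LG268 list.

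Among the 10 control-only promoters of highest score were those of Cdk2ap2 and Cenpm. Cdk2ap2, which encodes a protein related to an inhibitor of the kinase CDK2, had a region 389 bp upstream at rank 1703 in the control (score 28.27), with ranks 2743 with GW3965 and 6231 with RA. Cenpm, a centromere protein gene, had one 176 bp upstream at rank 1853 (score 27.46), with ranks 3269 with GW3965 and 4710 with RA. Neither was called with LG268. All 10 were called with GW3965 and 9 with RA, against 53.2% and 43.3% of all control-only promoters, and 6 of the 10 had an LG268 peak within 1 kb, against 40.1%. These 10 stood in the highest score band of the control list. In that band 99.5% of all control promoter peaks were found with GW3965 and 98.6% with RA.

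Distal regions of the control only were led by one 22142 bp from Whsc1, a histone methyltransferase gene, at rank 1723 (score 28.13), which was also called with GW3965 (rank 3947) and RA (rank 9137). E2f3, a cell cycle transcription factor gene, had one in intron 1 at rank 4442. A pair of regions near Msl2, whose product belongs to a histone acetyltransferase complex, stood at ranks 4342 and 4632. Of these 10 distal regions 7 had an LG268 peak within 1 kb, against 10.5% of all control-only distal regions, so the regions named here differ from most of their class in this.

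At the 10871 shared regions, the change was measured as the difference of score percentile, LG268 minus control. Each region was ranked among the shared regions only. A region is shared only where both lists call it, so the length of the lists still sets which regions enter. In the lowest band of control peaks, 10.7% of distal and 20.9% of promoter peaks were found with LG268. The part of this selection in the changes was not tested. Scores went together between the libraries, with a Spearman correlation of 0.743 over regions, which share their chromatin and base composition. The standard deviation of the change was 20.7 percentile points. A move of 25 points or more is called raised or lowered here: 1177 regions were raised (10.8%) and 1217 lowered (11.2%), close to equal numbers each way.

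Distal regions were raised more often than lowered, and promoters were not. Of 1965 shared distal regions 277 were raised (14.1%) and 160 lowered (8.14%), with a median change of 2.82 points. Of 8906 shared promoters 900 were raised (10.1%) and 1057 lowered (11.9%), with a median of -0.23. Distal regions stood lower to begin with, and 51.9% of them were under percentile 25 in the control, from where a region can be raised and cannot be lowered by 25 points, against 19.1% of promoters. Regions were therefore also compared within 4 equal bands of their mean percentile over both libraries. In the second band 151 of 587 distal regions were raised and 89 lowered, against 443 and 522 of 2516 promoters. In the third band 54 of 275 distal regions were raised and 29 lowered, against 322 and 361 of 2558 promoters. The direction was the same there as over all regions. With percentiles taken within the whole lists instead, the medians were -12.0 for distal regions and -11.7 for promoters, so that the direction turned and the 2 kinds no longer stood apart.

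Distal regions that held an RXR peak of the LG268 list were raised most often. Of these 168 regions 39 were raised (23.2%, interval 17.1 to 30.3%) and 14 lowered, with a median change of 8.35 points. Of the 1797 without one 238 were raised (13.2%, 11.7 to 14.9%) and 146 lowered, with a median of 2.28. These 2 intervals did not overlap, but they did in some other settings. In lists of equal length they were 16.9 to 31.7% and 13.3 to 17.5%, in the upper 50% of each list 20.5 to 42.4% and 14.6 to 21.7%, and with repeats left out 14.0 to 29.2% and 11.7 to 14.9%. With percentiles taken within the whole lists they were 2.08 to 9.17% and 2.56 to 4.28%. A sizeable part of the 39 raised regions lay in repeats or mitochondrial DNA. With these left out the raised shares with and without an RXR peak were 20.8% and 13.2%. Promoters with an RXR peak did not have the higher raised share: 30 of 360 were raised (8.33%) and 38 lowered, against 10.2% and 11.9% of those without one. The regions with RXR also stood somewhat higher in the control, at a median percentile of 33.0 against 23.2. Within bands of the mean percentile, the median change with and without an RXR peak was 5.23 and 1.68 in the lowest band, 13.4 and 5.48 in the second, 23.1 and 6.47 in the third and 2.32 and 0.51 in the highest. The raised shares with and without an RXR peak were 12.2% and 6.80%, 30.6% and 25.1%, 43.8% and 16.5%, and 0 of 25 and 5 of 132 in the same order. In the highest band the median control percentiles were 94.7 and 88.5, from where a rise of 25 points is out of reach, so its raised shares give no direction. The intervals of the raised shares did not overlap in the third band alone.

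Many of the RXR peaks at these distal regions were also in the control list. Of the 168, 91 also held an RXR peak of the control list, and 24 of them were raised (26.4%, 17.7 to 36.6%). Of the 77 whose RXR peak was in the LG268 list only 15 were raised (19.5%, 11.3 to 30.1%). These intervals overlap widely. By bands of the RXR score, set as 3 equal parts of the whole LG268 RXR list, the raised share was 14.7% (5 of 34), 28.9% (11 of 38) and 24.0% (23 of 96) from low to high.

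Distal regions with an LG268 RXR peak also had the higher raised share in the other ligand libraries, which are set against the same control library. The regions are those that each ligand list shares with the control, so the sets differ between ligands. With RA 47 of 202 such regions were raised (23.3%) against 12.4% of those without an RXR peak. With GW3965 34 of 216 were raised (15.7%) against 9.35%. In lists of 12472 peaks the shares were 23.7% and 15.3% for LG268, 29.6% and 14.2% for RA, and 22.3% and 11.4% for GW3965. The 3 comparisons share 1 control library, so these shares are not independent of one another.

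**Figure D3:**
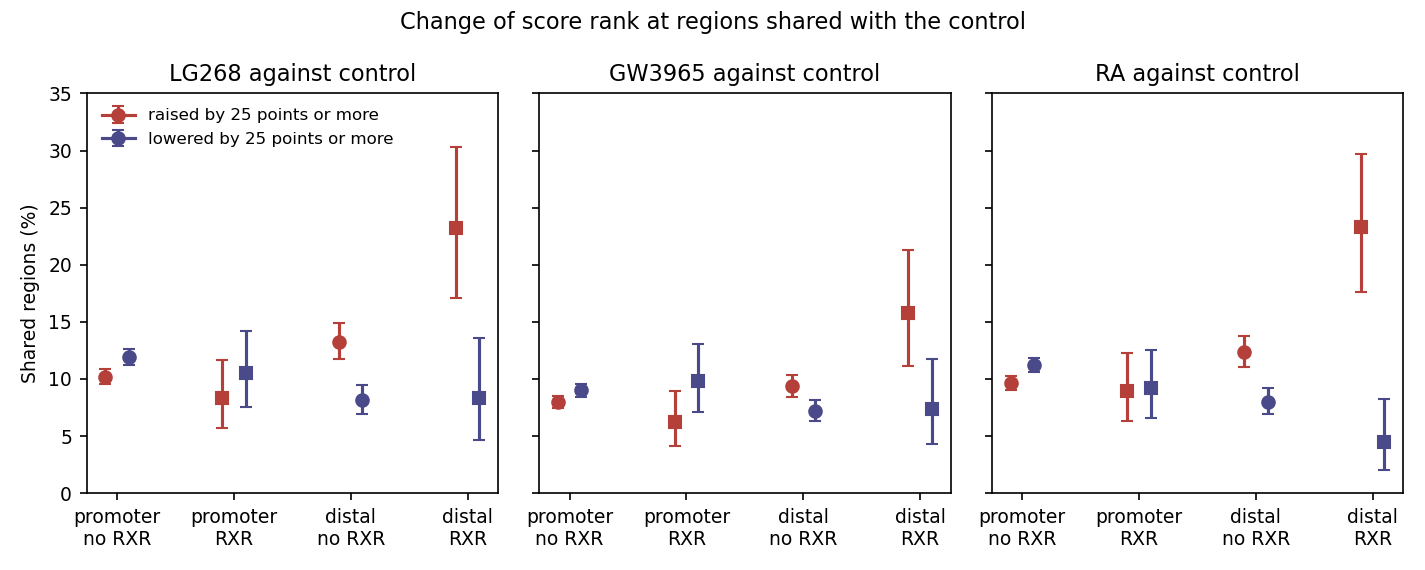
Share of regions shared with the control that were raised or lowered by 25 percentile points or more, for promoter and distal regions without (circles) and with (squares) an RXR peak of the LG268 list, for LG268, GW3965 and RA, with exact 95% binomial intervals. Distal regions with an RXR peak have the highest raised share in each panel, 23.2% for LG268, 15.7% for GW3965 and 23.3% for RA.

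Among regions whose score was in the upper 50% of the shared regions in at least 1 list, the largest distal rise belonged to Kdm6b. This gene encodes JMJD3, a demethylase that removes the repressive methyl mark from the same lysine of H3. Its region, intergenic at chr11:69418324-69418755 and 4833 bp upstream, stood at rank 11955 in the control (score 7.27) and rank 1408 with LG268 (score 16.68), a rise of 71.1 points. It stood at rank 12141 with GW3965 and 6915 with RA, and it held RXR peaks in the control (rank 88) and with LG268 (rank 185). Of the 10 largest distal rises, which were selected for the change itself, 4 held an LG268 RXR peak. These were Kdm6b, Fam189a2 (62.9 points), Cpt1a (58.9) and Tbc1d14 (57.5), a regulator of autophagosome formation. Over all shared distal regions the share was 8.55%, but that pool also holds repeats and regions low in both lists. In the third and highest bands of mean percentile 32 of 275 and 25 of 157 shared distal regions held an LG268 RXR peak. Among the 10 largest distal falls 1 held an LG268 RXR peak, at a region near Ptma, which encodes prothymosin alpha (-54.4). Mnt, which encodes a partner of MAX that opposes MYC, had no RXR peak at its region and rose by 63.5 points, from rank 8557 to 618.

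At promoters the 10 largest rises and the 10 largest falls held no LG268 RXR peak, where 4.04% of all shared promoters, again a wider pool, did. Smndc1, a splicing factor gene, rose by 88.0 points, from rank 19097 in the control to 1080 with LG268, with ranks 9827 with GW3965 and 5746 with RA. Runx1, which encodes a transcription factor of blood development, rose by 70.6, from rank 16378 to 2617. Airn, a non-coding RNA that takes part in imprinting, rose by 75.1. On the other side Pdcd7, a component of the minor spliceosome, fell by 75.4 points, from rank 1571 in the control (score 29.09) to 10711 with LG268 (score 4.02), and stood at 2828 with GW3965 and 2696 with RA. Rab2a, a small GTPase of the secretory pathway, fell by 74.9 and Psmc4, a proteasome ATPase, by 73.8. These regions were selected as the extremes of 8906 promoters, and with 1 library a side their size has no replicate check.

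The 30 raised promoters that held an LG268 RXR peak included that of Acadvl, a gene of the lists used below. This is the very long chain acyl-CoA dehydrogenase that opens mitochondrial fatty acid oxidation, and its promoter rose by 55.8 points, from rank 12708 in the control to 3388 with LG268, and stood at 3846 with RA and 10459 with GW3965. Hadh, a later enzyme of the same pathway, rose by 42.2 points, from rank 6686 to 1627. Klf11, which encodes a transcription factor, rose by 47.9, from rank 20421 to 5721, and its RXR peak stood at rank 378 in the control list and 133 in the LG268 list. Hadh and Klf11 were picked after their values were seen. Promoters with an RXR peak were not raised more often than others, as given above.

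Gene lists were used to place these changes: a gene counts for a list where a region within 100 kb has it as the nearest gene. Over all genes, 68.9% of the 12621 with a region had a shared one, 51.9% a control-only one and 7.12% an LG268-only one. Of the 8701 genes with a shared region, 12.7% had one that was raised and 13.5% one that was lowered.

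Of the 26 PPAR target and fatty acid oxidation genes 19 had a region, 15 of them a shared one. Raised regions were found for 3 (Acadvl, Cpt1a and Ucp3) and lowered ones for 4 (Acadl, Acot2, Cpt2 and Txnip). These stand beside 12.7% and 13.5% of all genes with a shared region. The median change over the 17 shared regions was -5.11, against 0.17 for all regions within that distance. By regions 7 of 27 were of the control only, against 43.7% of all regions within 100 kb. Cpt1a, the carnitine palmitoyltransferase that admits fatty acids to mitochondria, had its raised region in intron 1 at chr19:3324929-3325580, 1953 bp from the start. It stood at rank 14268 in the control (score 5.93) and 3501 with LG268 (score 10.95), and at 4490 with GW3965 and 10160 with RA, over RXR peaks at rank 39 in the control and rank 30 with LG268. Its promoter region (rank 19631 in the control) was called in the control only. Ucp3, a mitochondrial carrier of muscle, had a region 7215 bp upstream that went from rank 20959 to 6322, a rise of 43.1 points, and was called with neither GW3965 nor RA.

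The lowered members of that list were all promoters. Acadl, the long chain acyl-CoA dehydrogenase, went from rank 2757 in the control to 6533 with LG268 (-33.3 points) over an RXR peak that was called with LG268 only (rank 176). Cpt2, the inner membrane partner of Cpt1a, went from rank 2997 to 6254 (-28.6). Txnip, a thioredoxin-binding regulator of glucose uptake, had 1 promoter region at rank 3473 and 11782 (-64.9) and another at 5225 and 3780 (11.9 points). Members of this list thus moved both ways, also where an RXR peak lay, with 1 library a side.

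LXR targets had a shared region for 9 genes and a control-only one for 10. Of 23 genes 14 had a region, and among these 9 and 10 stand beside 68.9% and 51.9% of all genes, with 2 raised (Lpcat3 and Scd2) and 3 lowered (Arl4c, Scd2 and Srebf1), and the median change over 15 shared regions was -12.1. In all, 10 regions of this list held an RXR peak of the LG268 list, and 5 of the 10 were not called for H3K27ac with LG268. Among these 5, the pair near Scd1 lay under the same RXR peak, and all but that of Arl4c were distal. For all 759 regions with an LG268 RXR peak, 192 were of the control only: 117 of 314 distal regions and 75 of 445 promoters. Of the 9 such regions of the PPAR and fatty acid oxidation list, 8 were shared and 1 was of the control only. Several of the RXR peaks at LXR targets were among the highest of the LG268 list: rank 15 near Scd2, 21 at Fasn, 24 in Srebf1, 41 near Scd1 and 99 at Abca1.

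At several of these regions the GW3965 rank was the highest of the 4 lists. Scd1, the stearoyl-CoA desaturase, had regions 19342 and 18904 bp from its start at ranks 10942 and 11968 in the control, not called with LG268, and covered by 1 peak at rank 996 with GW3965 and rank 3992 with RA. Srebf1, the master regulator of fatty acid synthesis, had a region 9891 bp from its start at rank 9282 in the control and 3069 with GW3965, again not called with LG268, and its promoter went from rank 1867 to 6766 with LG268 (-43.2 points). Abca1, the cholesterol exporter, stood at rank 8074 in the control, 9091 with LG268 (-12.4 points), 1233 with GW3965 and 5668 with RA. At Fasn, the fatty acid synthase, the promoter with the RXR peak stood at 973, 2307, 2216 and 718. Rnf145, a ubiquitin ligase of the sterol pathway, and Scd2, the second desaturase, had RXR-holding shared regions with changes above 0 with LG268, of 16.1 and 12.0 points, below the 25 points used here.

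**Figure D4:**
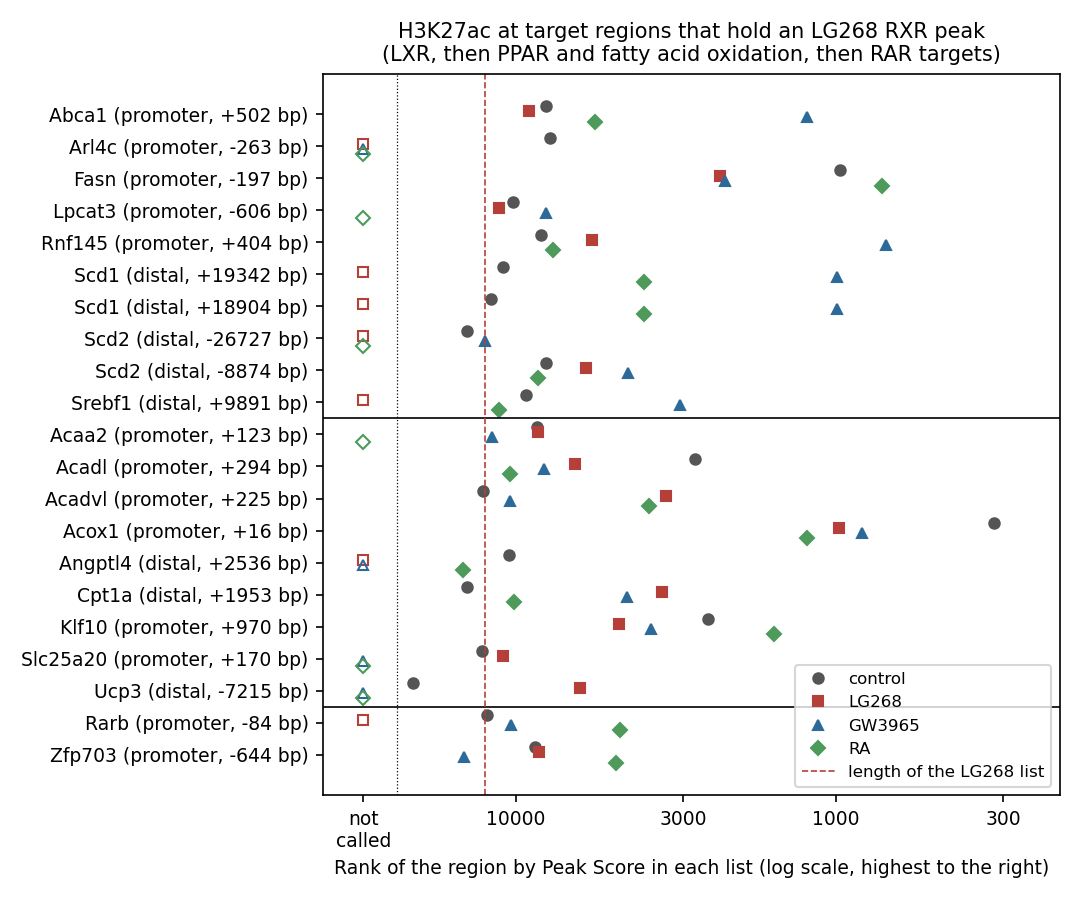
Rank by Peak Score in the control, LG268, GW3965 and RA lists of each region of the LXR, PPAR and RAR target lists that holds an RXR peak of the LG268 list, on a log axis with the highest ranks to the right and open symbols where a list has no peak. The dashed line marks 12472, the length of the LG268 list, since ranks left of it exist only in the longer lists. Cpt1a, Acadvl, Ucp3, Rnf145, Slc25a20, Zfp703, Acaa2 and the shared Scd2 region have their LG268 symbol right of the control. The other shared regions have it to the left. Slc25a20, Zfp703 and Acaa2 had percentile changes of -4.54, -3.95 and -5.11 points, so a place to the right is not in itself a rise. Cpt1a, Acadvl and Ucp3 are the regions here that were raised by 25 points or more. Of the 10 LXR target regions, 5 have no LG268 peak.

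RAR targets had few shared regions. Of 29 genes 20 had a region, 18 a control-only one (against 51.9% of all genes) and 7 a shared one (against 68.9%). The median control percentile of their regions was 37.7, against 53.4 for all regions within that distance, and the part of the control score in these counts was not tested. Over the 12 shared regions the median change was 7.95 points, against 0.17 for all shared regions within that distance, with 2 raised and 0 lowered. Meis1, a homeobox cofactor of the Hox proteins, was the 1 gene raised, at its promoter (rank 7802 to 2685) and in intron 7 (rank 8768 to 4944), with ranks of 6461 and 14351 with RA and 7499 and 11845 with GW3965. Rarg (rank 18894 in the control, 8035 with RA) and Nr2f1, an orphan receptor gene (rank 8629 and 4573), were not called with LG268. Rarb is described above.

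The pluripotency list had more control-only than shared regions. Of 32 genes 23 had a region, 12 a shared one (against 68.9% of all genes), 16 a control-only one (against 51.9%) and 3 an LG268-only one (against 7.12%). By regions 25 of 45 were of the control only, against 43.7% of all regions within 100 kb. The median control percentile of these regions was 32.1, against 53.4 for all regions within that distance. The part of the control score in these counts was not tested. Over the 17 shared regions of the list the median change was 1.63 points. Raised regions belonged to Lin28a, Nanog, Sall4 and Tet2, and lowered ones to Gdf3 and Klf4. Nanog had its region 4566 bp upstream at rank 8801 in the control, 4961 with LG268 and 8289 with GW3965, and it was not called with RA. Sall4 had one at ranks 5654, 2087, 2398 and 5489 in the control, LG268, GW3965 and RA lists. The Klf4 region 17422 bp from its start went from rank 5865 to 9730 (-32.2 points). Of the pair of regions at Sox2 that were shared, the changes were 1.63 and -17.2. Both regions of Pou5f1, which encodes OCT4, were at ranks 20200 and 18508 in the control and in no other list. The 2 directions were thus both present, and 4 raised of 12 genes stands beside 12.7% of all genes.

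Lineage lists were thin and mostly of the control. Neural genes had a region for 14 of 23, at a median control percentile of 31.4. Of these genes 13 had a control-only region (against 51.9% of all genes) and 3 a shared one (against 68.9%). Endoderm genes had 10 of 17, mesoderm genes 6 of 16 with every region of the control only, and trophoblast genes 3 of 11. Fibroblast genes, which would mark feeder cells, had none of 11. Only 3 neural regions were shared, too few to read a direction from. Of the 17 endoderm regions 13 were of the control only, 2 were shared and 2 were of LG268 only. Over all regions within 100 kb 43.7% were of the control only. The median control percentiles of the endoderm, mesoderm and trophoblast regions were 26.9, 7.39 and 15.2, and the part of the control score in these counts was not tested.

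Of the 18 cholesterol synthesis genes with a region, which SREBP2 controls, 16 had a shared one, against 68.9% of all genes. By regions the list was like the rest: 18 of its 34 were shared, 13 of the control only and 3 of LG268 only, and of all regions within 100 kb 10573 of 20447 were shared. Over the 18 shared regions the median change was 4.33 points. Raised regions belonged to Fdps, Lss and Stard4 and a lowered one to Insig1. Lss, the lanosterol synthase, went from rank 12117 to 4084 (47.5 points), and no RXR peak lay there. Stard4, a sterol carrier, went from 9069 to 3357 (41.5 points), and Fdps, the farnesyl diphosphate synthase, from 17325 to 8049 (25.4). Hmgcs1, an early enzyme of the pathway, stood at rank 1461 in the control and 1180 with LG268, a change of 2.59 points.

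Among nuclear receptors and coregulators 31 of 36 genes had a region, with 2 raised, Nr4a1 among them, and 3 lowered (Nr2c2, Rxra and Rxrb). Rxra and Rxrb encode the receptors that LG268 binds. The Rxra promoter went from rank 3988 to 7861 (-33.4 points) while a region 580 bp upstream was called with LG268 only at rank 7747, and the Rxrb promoter went from 3483 to 6516 (-26.6). Rxrg stood at ranks 17472 and 12425 (-3.37). Ep300, which encodes p300, stood high in both lists, at ranks 416 and 535. Early response genes, which react to handling and serum, had a region for all 17, with raised ones at Atf3 and Junb and a lowered one at Dusp6. Housekeeping genes had 18 of 21 with a shared region, 3 raised and 2 lowered. The nuclear receptor, early response and housekeeping lists had 25, 21 and 32 shared regions, with median changes of -1.10, 4.86 and 0.74 points. Among all 10573 shared regions within 100 kb 1146 were raised and 1198 lowered.

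**Figure D5:**
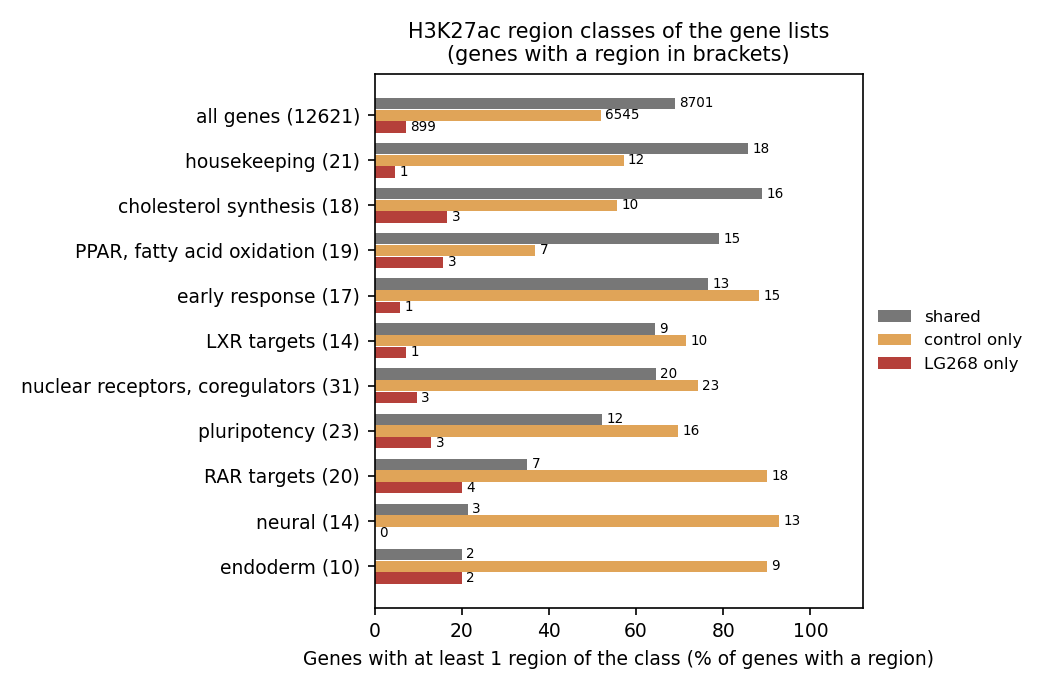
Share of the genes of each list drawn with at least 1 shared, control-only or LG268-only region, out of the genes of that list with any region within 100 kb (number in brackets, counts at the bar ends), with all genes on top. The mesoderm, trophoblast and fibroblast lists are not drawn. Shared regions were found for 16 of 18 cholesterol synthesis genes and for few of the neural and endoderm genes.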

How the data were processed

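The authors deposited 1 peak list per library, with positions, a Peak Score, the nearest gene and the distance to its start. Per the submitters' processing notes the tools were BWA 0.6.0, HOMER 4.2 and MACS2 2.0.10 and the builds mm9 and mm10, with no role given. Per the file headers the annotation is mm10. As a check, 93.0% of control and 93.9% of LG268 promoter peaks whose gene had a RefSeq entry (GRCm38.p6) gave, from their distance, a start no more than 100 bp from it. The scale of the deposited score between libraries is not stated, so scores were ranked within a list.

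Peaks sharing 1 bp were merged, and the highest score of a list stood for a region. Nearest genes were used up to 100 kb. Shares carry exact (Clopper-Pearson) 95% intervals, which cover counting error only. Depth per library is unknown. With 1 library per group no test was made. Named regions were the 10 highest or most changed of each class, outside repeats and mitochondrial DNA, plus members of 13 gene lists of 11 to 36 genes. For changes, a region had to be in the upper 50% of the shared regions by score in at least 1 list. The members and lists were chosen with earlier results of these data known. Scripts (Python 3.11.15, numpy 2.4.6, pandas 2.3.3, scipy 1.17.1) were tested on simulated lists. Alternatives were lists of equal length, the upper 50% of each list, 50% overlap, merging within 1 kb, leaving out repeats, a 5 kb promoter, summed scores, whole-list percentiles and other gene distances. RXR lists of GW3965 and RA and of differentiated cells were not used here.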

Additional observations from a re-analysis of the deposited data

How the results depend on the processing

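Counts and shares moved with the length of the lists, and the order of the promoter shares did not hold throughout. In lists of equal length 3058 regions were of the control only and 2638 of LG268 only, with promoter shares of 64.5% and 47.6% beside 86.0% for shared regions. In the upper 50% of each list these were 4885 and 328 regions beside 5778 in both, with 77.3%, 69.2% and 90.5%. With 50% overlap 2906 regions were of LG268 only, and the shares were 48.6% for the control only, 59.9% for LG268 only and 83.5% for both, so that the order of the single-list classes turned. Merging within 1 kb gave 653 LG268-only regions and shares of 33.1%, 20.2% and 81.2%. A 5 kb promoter gave 50.8%, 43.3% and 85.7%. The median rank change of shared distal regions was 4.87 in the upper 50% of each list. Percentiles within the whole lists gave -12.0 for distal and -11.7 for promoter regions and -9.45 for regions with an LG268 RXR peak, since shared regions make up more of the shorter list. On that scale distal regions with and without an RXR peak had medians of -6.50 and -12.9. The raised shares of distal regions with and without an RXR peak were 30.7% and 17.9% in the upper 50% of each list, 4.76% and 3.34% on the whole-list scale and 20.8% and 13.2% with repeats left out, and the intervals of each pair overlapped. List members with an LG268-only region went from 20 to 42 in lists of equal length, and those with a control-only region from 133 to 51. Of 125 alternative values 82 stayed within 1.5 times the count, or within the 95% interval of the value, given in the report. No paired analysis was possible because each group is 1 library. Depth is unknown, and weak regions depend on it.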
